A study of Vitis vinifera with 2 samples.

Results

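In 66977 of 265670 windows of 1 kb along the grapevine genome (25.2%), cytosines in the CG and CHG contexts were heavily methylated while the level in the CHH context was under 5%. These windows, called members here, were chosen from the deposited values. Chromosomes 1 to 19 were cut into consecutive stretches of 1000 bases from position 1 on, and a window was evaluable when it held at least 8 CG, 8 CHG and 40 CHH cytosines listed for both lines. A member had a CG level of at least 70%, a CHG level of at least 40% and a CHH level under 5%, with the reads of both lines pooled. H stands for A, C or T.

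The study set an autotetraploid of the grapevine 'Jingyanjing' (4X), obtained by colchicine treatment, against the diploid 'Jingyanjing' it was derived from (2X). Colchicine blocks spindle formation, so that a cell can keep a doubled set of chromosomes. Terminal buds, labelled tip buds, gave the DNA, and all vines received the same standard vineyard care. Each line was represented by 1 bisulfite library made from DNA pooled over 3 vines, so the vines of a line cannot be told apart, there was no replicate, and each interval and p-value below compares 2 libraries and not 2 conditions.

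Bisulfite turns unmethylated cytosines into bases read as thymine, so methylation is scored where cytosine is still read. The 4X library had 1282456984 base calls at 107953697 listed cytosines (mean depth 11.9 reads), and the 2X library had 1403178852 at 109144737 cytosines (mean depth 12.9 reads). Each listed cytosine had at least 3 reads. The 87797533 cytosines listed for both lines on the 19 chromosomes were used.

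Plants methylate cytosines in 3 contexts by separate routes, best known from Arabidopsis. The methyltransferase MET1 copies CG methylation onto the new DNA strand after replication. CMT3 methylates CHG where histone H3 carries methylation at lysine 9, and the histone methyltransferase KYP binds methylated DNA in turn, so that both marks maintain each other in heterochromatin and transposons. CHH has no methylated partner on the opposite strand and must be set anew, by CMT2 in heterochromatin and by DRM2 guided by small RNAs in RNA-directed DNA methylation, whereas the bodies of many active genes carry CG methylation alone.

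Members had a median pooled CG level of 88.3%, a CHG level of 71.1% and a CHH level of 3.58%. Low CHH here means low against the limit of the rule, since all evaluable windows had a mean CHH level of 2.52% and the members one of 3.44%. Their CHG levels reached 96.5% and their CHH levels lay between 0.194% and just under 5%. These pooled levels chose the members and are given as a description. The median member held 17 CG, 19 CHG and 226 CHH cytosines, with a mean depth of 12.03 reads per cytosine in 4X and 13.27 reads in 2X. Of all windows with CG of at least 70% and CHG of at least 40%, 62.5% (66977 of 107137) were members. The other 40160 windows had the same CG and CHG limits but CHH of 5% or more and are called CHH-rich windows. They had a median CHG level of 77.1% and held 21 CG, 28 CHG and 186 CHH cytosines at the median. The 38918 CG-only windows (CG of at least 70%, CHG under 10%, CHH under 5%) held 13, 47 and 247 cytosines.

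**Figure D1:**
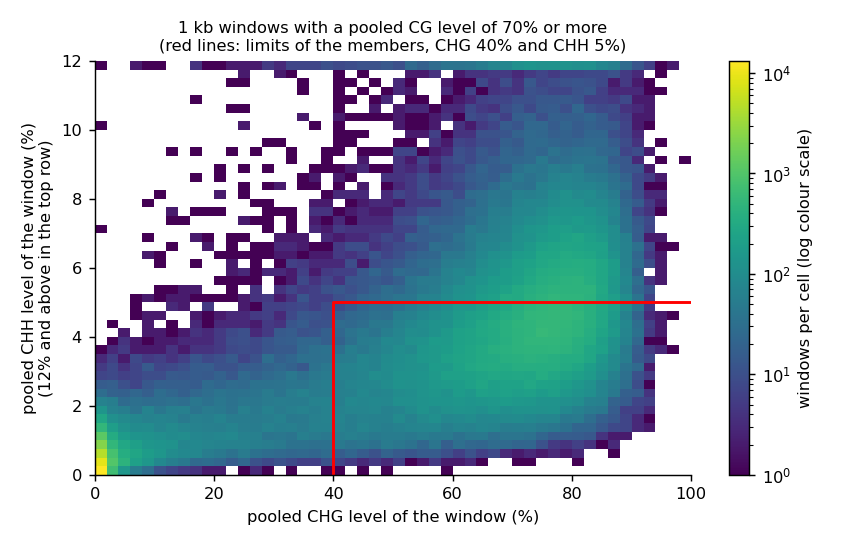
Number of windows by pooled CHG level (x axis, %) and pooled CHH level (y axis, %), for windows with a pooled CG level of at least 70%, on a logarithmic colour scale, with the windows at 12% CHH or more in the top row. Red lines mark the CHG limit of 40% and the CHH limit of 5%, which runs through the densest part of the cloud of heavily CHG-methylated windows, while the CG-only windows form a separate cluster at the lower left.

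The CHH limit did not fall in a gap. In 23383 members (34.9%) the CHH level was between 4% and 5%, and 17374 of the CHH-rich windows had a level between 5% and 6%. At the other end, 828 members (1.24%) were under 1%. The CG and CHG limits were crossed by fewer windows, with 712 members under 71% CG and 417 under 41% CHG. Just inside the CHH limit was chr14:10797001-10798000, with 4.87% in 4X and 5.12% in 2X, and just outside it chr1:13495001-13496000, with 5.04% in 4X and 4.96% in 2X. The nearest window inside the CHG limit, chr2:12452001-12453000, had 39.4% in 4X and 40.4% in 2X, and the nearest outside, chr4:358001-359000, had 38.8% in 4X and 40.9% in 2X. For CG these were chr1:6545001-6546000 inside, with 65.8% in 4X and 73.7% in 2X, and chr9:12523001-12524000 outside, with 70.7% in 4X and 69.3% in 2X. The windows on either side of each limit differed between the libraries by more than their pooled levels differed from each other.

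Because the rule pooled both libraries, it was also applied to 1 library at a time and read in the other. Of 67211 windows chosen from 4X alone, 82.0% also met the rule in 2X. Of 66387 chosen from 2X alone, 83.0% (55082) met it in 4X. Most windows that failed did so in CHH. In 9392 windows chosen from 4X and 8707 chosen from 2X the CHH level of the other library was 5% or more, while CHG failed in 1253 and 1381 windows. Windows that failed in the other library had a median CHH level there of 5.35% in either direction. Among the pooled members, 82.2% met all limits in each library and 0.272% in neither.

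Members were found on every chromosome and were most frequent in the middle of chromosomes. Their share of the evaluable windows was 13.7% in the first 10% of chromosome length (taken to the last evaluable window), reached 40.3% between 50% and 60% of the length and was 21.6% in the last 10%. Unmethylated windows, with CG and CHG under 5%, ran the other way, with 21.6% in the first 10% of the length and 7.65% between 50% and 60%. Chromosome 9 had the highest share of members (34.8%, 5221 of 14997) and chromosome 8 the lowest (14.9%, 2081 of 14001). In bins of 1 Mb the share lay between 3.59% (chr8:19000001-20000000) and 63.2% (chr9:15000001-16000000).

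Members lay next to each other more often than their overall share. A window was counted for each member it adjoined, which gave 97509 evaluable neighbours. Of these, 59.2% were members themselves, against 25.2% of all evaluable windows. Another 21.7% were CHH-rich (15.1% of all), 2.47% CG-only (14.6% of all) and 1.62% unmethylated (15.8% of all). At 20 kb, counted in the same way, the share of members was still 37.0%. Among the 39771 neighbours that were not members, 53.3% missed the rule in CHH alone and 14.9% in CHG alone. The mean CHG level was 69.2% in the members, 63.1% in adjoining windows and 44.8% at 20 kb, and that of CHH was 3.44%, 3.84% and 3.04%. These steps at the border of a member are a description, since the rule set a lower limit for CG and CHG and an upper limit for CHH in the members and none in the windows around them.

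Adjacent members formed 38108 runs, and a run also ended at a window that was not evaluable. In this sense 35.0% of members (23466) stood alone, while 7375 members had both neighbours evaluable and neither a member. Runs of at least 5 windows numbered 1768 and held 16.9% of members. The longest run, chr15:7872001-7912000, had 40 windows and 1078 CG cytosines. Its levels were 87.4% in 4X and 86.9% in 2X for CG, 74.2% in 4X and 74.1% in 2X for CHG, and 3.606% in 4X and 3.597% in 2X for CHH. The interval of each of these differences held 0, and none of its windows was called in any context. The second longest, chr15:7792001-7824000, had 32 windows, with CHG levels of 77.7% in 4X and 76.7% in 2X (difference 0.997 percentage points, interval -0.181 to 2.17). Both lay in chr15:7000001-8000000, where 60.3% of evaluable windows were members.

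**Figure D2:**
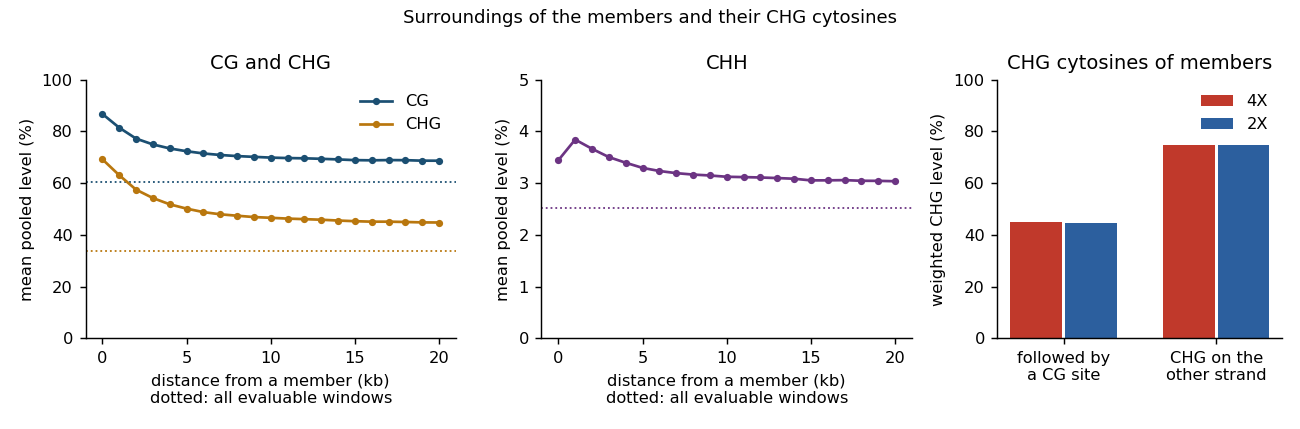
Left and middle, mean pooled level (%) of evaluable windows by their distance from a member (kb, 0 for the members), for CG and CHG and for CHH, with the mean of all evaluable windows dotted. A window was counted for each member at that distance. Right, weighted level (%) of member CHG cytosines in 4X and 2X by sequence class, where cytosines followed by a CG site had 44.9% and 44.7% and those with a CHG partner on the other strand 74.7% and 74.6%.

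CHG cytosines of the members fell into 2 sequence classes with unequal methylation, a feature the rule did not use. In a CCG the outer cytosine is followed by a CG site, and the opposite strand has no CHG partner, while in a CWG (W for A or T) the cytosines of both strands are CHG. In Arabidopsis CCG is methylated less than CWG. The class was inferred from the positions and contexts of neighbouring cytosines, which placed 73.4% of member CHG cytosines, 17.0% of them as CCG. The weighted level, that is methylated reads over all reads, was 44.9% in CCG and 74.7% in CWG in 4X, and 44.7% in CCG and 74.6% in CWG in 2X. In 27733 members with at least 3 cytosines of each class, CCG was the lower one in 96.4% in 4X and in 96.6% in 2X.

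The same order held in the CHH-rich windows, with CCG at 53.2% and CWG at 81.2% in 4X, and with 52.9% and 81.0% in 2X. The gap between the classes, CCG minus CWG, was -29.8 percentage points in the members and -28.0 in the CHH-rich windows in 4X. Between libraries, each class of the members was higher in 4X than in 2X, by 0.233 points in CCG (95% interval 0.144 to 0.322) and by 0.143 points in CWG (0.109 to 0.177). Over all member CHG cytosines the difference was smaller than in either class, at 0.0624 points. The cytosines that could not be placed were not compared on their own. Intervals of levels are Wilson's and those of differences Newcombe's, and both cover counting error only, since without molecular identifiers reads cannot be taken as independent molecules, and a read is counted at each cytosine it covers.

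Both strands of the members were methylated to nearly the same level. In 502119 CG sites with both strands listed, the strand listed first had 87.1% and its partner 87.2% in 4X, a difference of -0.0880 points, and in 2X this difference was -0.0644 points. In 463132 CWG pairs the levels were 74.7% and 74.6% in 4X, a difference of 0.160 points (0.111 to 0.209). In 2X it was 0.142 points (0.0955 to 0.189). Each of these intervals excluded 0. The CWG gap between strands of 1 library was thus close in size to the CWG difference between the libraries (0.143 points). Where each strand had at least 10 reads, both strands were at 80% or more in 73.6% of the CG sites in 4X and 73.5% in 2X. A site with one strand at 80% or more and the other at 20% or less was seen in 0.236% of CG sites in 4X and in 0.226% in 2X. In CWG pairs both strands reached 80% in 40.97% in 4X and 40.77% in 2X, and both were at 20% or less in 3.40% in 4X and 3.32% in 2X. Most of the other CWG pairs were therefore partly methylated on at least 1 strand.

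Single cytosines with at least 10 reads in each library showed the same. Of 593356 CG cytosines of members, 82.9% in 4X and 82.8% in 2X were at 80% or more, and of 691068 CHG cytosines 49.3% in 4X and 48.6% in 2X. In CHH most cytosines were without a methylated read at this depth. No methylated read was seen at 74.6% of 6732795 CHH cytosines in 4X and at 72.8% in 2X, and at 62.7% in the pooled reads. A share of 4.06% of these CHH cytosines was at 20% or more in the pooled reads and held 39.0% of their methylated reads. The larger part of those reads thus lay on weakly methylated cytosines. The members had 14494586 CHH cytosines at any depth, and the others were not counted here. Cytosines that were at 80% or more in one library and under 20% in the other were rare. In CG, 79 cytosines were at 80% or more in 4X and under 20% in 2X, and 10 had the opposite order. CHG had 162 and 84 such cytosines, and CHH 47 and 42. In CG the same order was seen outside the members. There were 19 and 5 such cytosines among 373840 in CHH-rich windows, and 13 and 4 among 263515 in CG-only windows.

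Between the libraries the members differed by fractions of a percentage point. The CG level was 87.2% in 4X and 86.9% in 2X, higher in 4X by 0.248 points (95% interval 0.226 to 0.270), from 16903595 reads in 4X and 18727121 in 2X. CHG was 70.3% in either library and higher in 4X by 0.0624 points (0.0344 to 0.0904). CHH was 3.36% in 4X and 3.39% in 2X, lower in 4X with a difference of -0.0223 points (-0.0259 to -0.0188). The intervals excluded 0 in each context, but without replicates the spread between libraries of 1 line is unknown. Averaged over cytosines in place of reads, CG differed by 0.268 points, CHG by 0.156 and CHH by -0.0451, so the size of the CHG and CHH differences moved by more than 1.5 times.

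The rest of the genome differed from the members in these small shifts. All evaluable windows other than members had a CG level of 47.9% in 4X and 48.1% in 2X, a difference of -0.167 points by reads. The difference in members was larger by 0.414 points (95% interval 0.385 to 0.444). By class, the CG differences of the other windows were 0.133 points in CHH-rich, 0.111 in CG-only, -0.0573 in unmethylated and -0.00408 in the remaining windows. The pooled -0.167 lies below all of these, so it also reflects how the reads of each library were spread over windows of unlike level. The contrast of 0.414 points is therefore not a trait of the members alone. For CHG, pooled in the same way, the other windows had -0.445 points, and the members exceeded this by 0.508 points (0.477 to 0.538). Averaged over cytosines, the other windows had 0.170 points in CG and -0.1000 in CHG, so the sign of their CG difference turned, though both stayed below the members. For CHH the other windows had -0.0569 points by reads and -0.0453 averaged over cytosines, the second next to the -0.0451 of the members.

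CHH-rich windows, the class nearest to the members, had a CG difference of 0.133 points, a CHG difference of 0.130 and a CHH difference of -0.0519. The members exceeded them in CG by 0.115 points (95% interval 0.0811 to 0.149). In CHG, members minus CHH-rich windows was -0.0679 points by reads (-0.109 to -0.0267), but averaged over cytosines the members were above them, with 0.156 against 0.138 points. CG-only windows had a CG difference of 0.111 points, which the members exceeded by 0.137 points (0.0941 to 0.179). The unmethylated windows had a CHH level of 0.264% in 4X and 0.308% in 2X. Their class had no CHH limit and held windows of up to 47.7% pooled CHH, so these levels are no clean background. The median window of the class had 0.133% in 4X and 0.165% in 2X. The difference of this class by reads, -0.0433 points, was larger in size than that of the members. The part of any background in the CHH difference of the members was not tested.

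**Figure D3:**
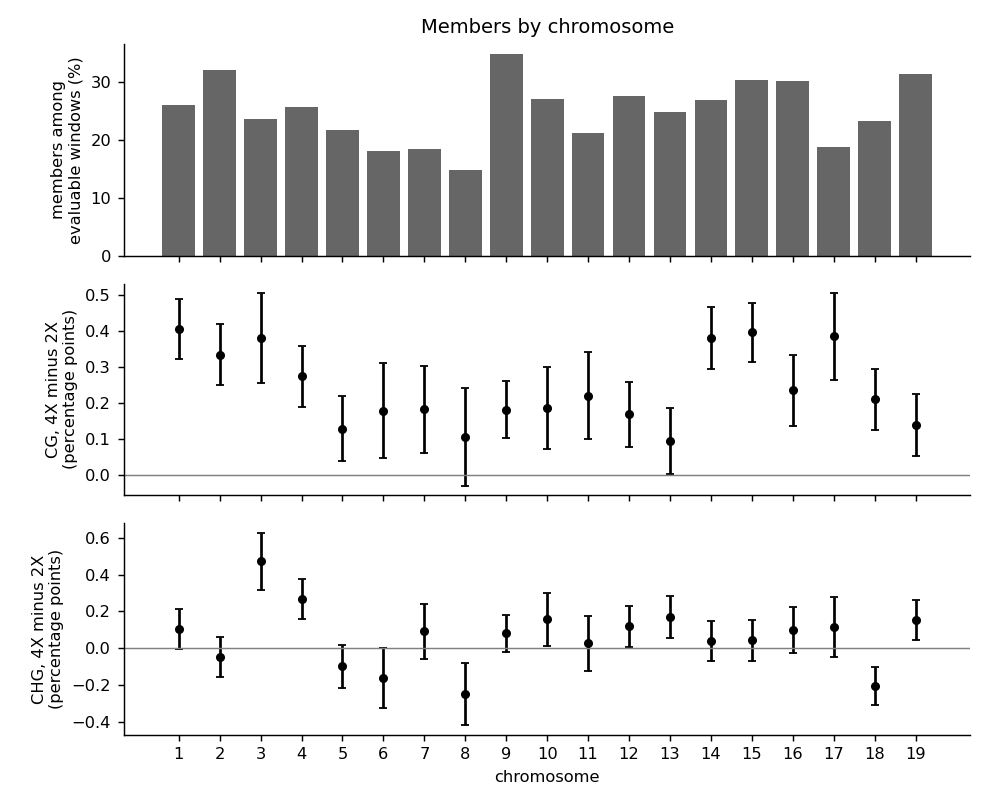
Share of members among evaluable windows (top, %) and the difference in CG (middle) and CHG level (bottom) of the members, 4X minus 2X in percentage points with 95% Newcombe intervals, for chromosomes 1 to 19. CG was above 0 on 19 of 19 chromosomes, between 0.0937 and 0.406 points, and CHG on 14 (16 averaged over cytosines, 18 by the median window).

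By chromosome, the CG difference of the members was above 0 on 19 of 19 chromosomes, between 0.0937 points (chromosome 13) and 0.406 points (chromosome 1). Only on chromosome 8 did the interval hold 0 (-0.0306 to 0.240). The CHG difference was above 0 on 14 chromosomes and below 0 on 5, between -0.249 points (chromosome 8) and 0.473 points (chromosome 3). Averaged over cytosines it was above 0 on 16 chromosomes, and by the median window on 18. CHH was lower in 4X on 16 chromosomes and higher on 3 (on 1 averaged over cytosines and on 0 by the median window), and the largest difference in size was -0.0559 points on chromosome 10. The chromosomes come from the same 2 libraries and are not replicates.

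The CG difference was above 0 in each band of CG level, from 0.440 points in members with 70 to 75% CG to 0.110 points in those with 95 to 100%. By CHG level, CHG was lower in 4X in members with 40 to 50% CHG (-0.462 points, 95% interval -0.581 to -0.343) and higher in 4X in those with 70 to 80% (0.254 points, 0.211 to 0.297). By CHH level, the CG difference was 0.695 points in the 828 members under 1% CHH and 0.186 points in those with 4 to 5%.

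Window by window, the levels of the libraries followed each other. Over 66977 members the Pearson correlation of the 4X and 2X levels was 0.774 for CG, 0.864 for CHG and, lowest, 0.674 for CHH, as a description of windows that share their libraries and the limits of the rule. The difference between the libraries had a median of 0.242 points for CG, 0.241 for CHG and -0.0374 for CHH. Of the members, 90% had CG differences between -6.74 and 7.30 points, and CHG differences between -9.56 and 10.1 points. The median half-width of the counting interval of 1 window was 6.13 points for CG, 7.78 for CHG and 0.965 for CHH, so most windows differed by less than could be detected at this depth.

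**Figure D4:**
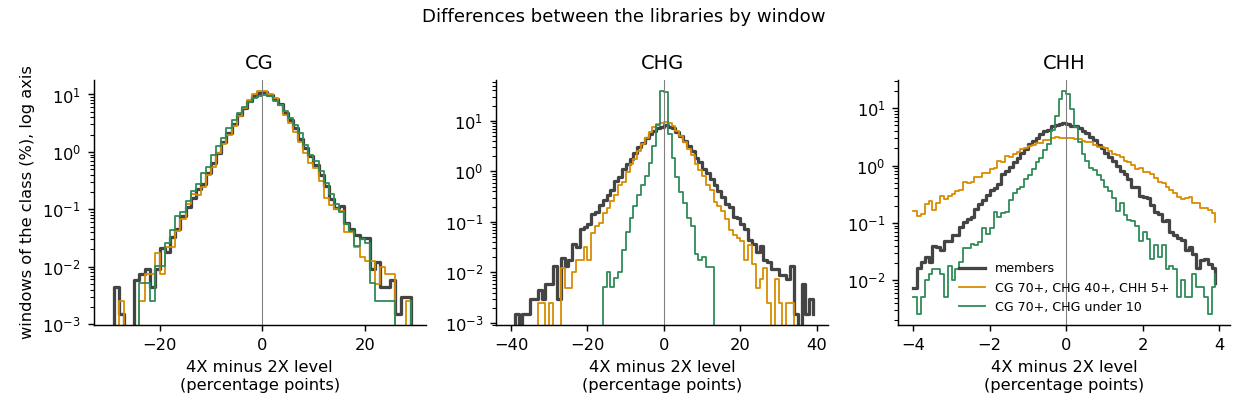
Share of windows (%, logarithmic axis) by the difference between the libraries (4X minus 2X, percentage points) in CG, CHG and CHH, for members, CHH-rich windows and CG-only windows. The 3 CG curves lie almost on each other, the CHG curve of the members is the widest, and in CHH the members lie between the CG-only and the CHH-rich windows.

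Single windows were compared with a two-sided Fisher's exact test of methylated and unmethylated reads, with Benjamini-Hochberg adjustment over all 265670 evaluable windows. A window was called at an adjusted p under 0.05 and a difference of at least 10 points in CG or CHG, or at least 5 points in CHH. In CHG, 1768 members were called (2.64%, 95% Wilson interval 2.52 to 2.76), against 1.84% of all evaluable windows. Of these, 921 were higher in 4X (0.873% of all windows were) and 847 lower (0.965% of all). In CG, 485 members were called (0.724%, interval 0.663 to 0.791), against 1.49% of all windows. There 295 were higher in 4X, beside 0.865% of all windows, and 190 lower, beside 0.628% of all. In CHH, 21 members were called (0.0314%), against 0.526% of all windows, with 11 higher (0.259% of all) and 10 lower (0.267% of all). The share called among members was above that of all windows in CHG and below it in CG and CHH. All windows include the 38918 CG-only windows, of which 0.1002% were called in CHG, and the 41851 unmethylated windows, of which 0.00717% were, and CHG levels near 0 leave little room for a difference of 10 points. Of the 77764 windows in none of the classes named here, 3.31% were called in CHG and 3.92% in CG, above the members. The CHH limit of the rule likewise leaves the members little room for a difference of 5 points.

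In the CHH-rich windows 1.24% were called in CHG, 0.583% in CG and 2.24% in CHH. The CHG interval of this class was 1.14 to 1.36, below that of the members. Such intervals take windows as independent, though all come from the same 2 libraries. The CHH-rich windows had a median CHG level of 77.1%, against 71.1% in the members. Among members the share called in CHG fell from 7.70% at 40 to 50% CHG to 0.763% at 80% or more. The part of the CHG level in the difference between the classes was not tested. Without a minimum difference, an adjusted p under 0.05 was reached by 2123 members in CHG (3.17%, against 3.69% of all windows), 825 in CG (1.23%, against 2.14%) and 5685 in CHH (8.49%, against 12%). In this form the members lay below the whole in each context.

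These counts depended on the test. The Kruskal-Wallis rank sum test of the levels of single cytosines, the kind of test the study used for its regions, called 10 members for CG (0.0149%), 25 for CHG (0.0373%) and 111 for CHH (0.166%) under the same limits. Of all windows this test called 0.0154% for CG, 0.0534% for CHG and 0.478% for CHH. Of the members it called, 8 for CG, 24 for CHG and 7 for CHH were called in the same direction by the Fisher test. It treats each cytosine as 1 value, while the Fisher test treats each read at each cytosine as 1 value.

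Members called in CHG differed by intermediate amounts. Those higher in 4X had a median CHG level of 72.4% in 4X and 55.0% in 2X, and those lower in 4X had 50.8% in 4X and 68.5% in 2X. Counted in the members only, 375 of these calls (0.560% of all members) reached at least 20 points, and 55 (0.0821%) at least 30 points. The share called was 7.70% among members with 40 to 50% CHG and 0.763% among those with 80% or more. CG differed in the same direction in 68.6% of the CHG-called members, and CHH in 71.4%. In both CG and CHG, 81 members were called, 79 of these in the same direction (49 higher and 30 lower in 4X). Another 1687 were called in CHG and not in CG. These counts were made for the members only, so no share of all windows stands beside them.

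Calls in CHG were more frequent where members ended. Among members with both neighbours evaluable, 1.88% of the 14227 with 2 member neighbours were called in CHG (95% Wilson interval 1.67 to 2.12), 2.87% of the 15445 with 1, and 4.01% of the 7375 with 0 (3.59 to 4.49). Among the 2946 of these members next to an unmethylated or CG-only window, 7.74% were called (6.83 to 8.76). The median depths of these groups were close, between 11.8 and 12.8 reads in 4X and between 12.9 and 14.1 reads in 2X. Members next to an unmethylated or CG-only window had a median CHG level of 60.6%, against 73.0% in those with 2 member neighbours, and the part of this level in the difference was not tested. Of 1626 CHG-called members with an evaluable neighbour, 101 (6.21%) adjoined a window called in the same direction. This share was not counted for windows outside the members.

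The windows named below were the called members with the largest differences at a mean depth of 10 to 40 reads in both libraries, 3 per direction in CG and CHG and the only 1 per direction in CHH. Positions are those of the deposited files, whose genome build is not given in the sources used here. Each p is the adjusted p of Fisher's exact test.

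**Figure D5:**
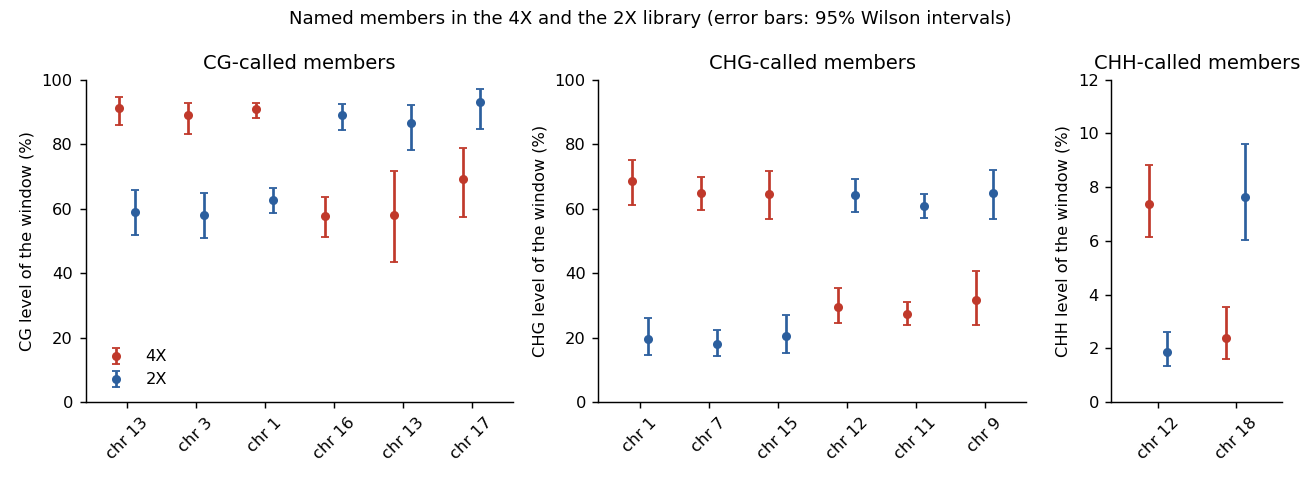
Levels (%) of the 14 named members in 4X and 2X with 95% Wilson intervals, in the context in which each was called (CG, CHG and CHH from left to right), labelled by chromosome. The windows were chosen for a large difference in these same reads, so the separate intervals of 4X and 2X in all 14 are no further support. The CHG windows span 18.0% to 68.5%.

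Among the named windows, the largest CHG increase in 4X was in chr1:2640001-2641000. Its 8 CHG cytosines had 68.5% in 4X (115 of 168 reads) and 19.7% in 2X (37 of 188 reads), a difference of 48.8 points (exact test, adjusted p = 1.72e-17). CG was also higher, 88.6% in 4X and 68.3% in 2X over 24 cytosines, while CHH was 2.27% in 4X and 1.97% in 2X. The window before it was unmethylated, with 1.02% CHG in 4X and 0.287% in 2X, while its CG was 7.58% in 4X and 1.72% in 2X.

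Window chr7:3742001-3743000 had 64.7% CHG in 4X (213 of 329 reads) and 18.0% in 2X (66 of 366 reads), higher in 4X by 46.7 points (exact test, adjusted p = 6.37e-33). The higher level was spread over the window, since 15 of its 18 CHG cytosines were higher in 4X by at least 20 points and 1 was lower by as much. On its CWG pairs the difference was 63.1 points on one strand and 60.2 on the other. The window before it, no member, had 45.4% CHG in 4X and 2.90% in 2X, so that the difference ran on across the window limit.

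In chr15:16128001-16129000 CHG was 64.7% in 4X (99 of 153 reads) and 20.6% in 2X (36 of 175 reads), a difference of 44.1 points (exact test, adjusted p = 7.36e-13). The 9 CHG cytosines higher by at least 20 points lay between positions 16128104 and 16128409. CHH went the other way, with 0.866% in 4X and 1.93% in 2X. The window before it was unmethylated in both libraries, with 0.714% CHG in 4X and 1.198% in 2X.

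Among the CHG decreases, chr12:15087001-15088000 had 29.6% in 4X (79 of 267 reads) and 64.3% in 2X (220 of 342 reads), a difference of -34.7 points (exact test, adjusted p = 2.43e-14). Its CG level did not follow, with 82.3% in 4X and 80.3% in 2X. Window chr11:14773001-14774000 had 27.3% CHG in 4X (156 of 571 reads) and 60.9% in 2X (424 of 696 reads), and again CG did not follow, at 80.3% in 4X and 80% in 2X. There 40 of 43 CHG cytosines were lower in 4X, 33 of them by at least 20 points, and 26 carried a methylated read in 4X against 43 in 2X. It was the only 1 of the 6 named CHG windows that the rank sum test also called. In chr9:4259001-4260000, CHG was 31.6% in 4X (36 of 114 reads) and 64.8% in 2X (94 of 145 reads). The 3 CHG increases came with called CG increases, and the 3 CHG decreases came with no called CG difference.

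The named CG increases in 4X came with CHG increases as well. Window chr13:23580001-23581000 had 91.1% CG in 4X (154 of 169 reads) and 59.0% in 2X (108 of 183 reads), a difference of 32.1 points (exact test, adjusted p = 3.19e-09), and 54.7% CHG in 4X and 27.6% in 2X. Each of its 8 CG cytosines was higher in 4X. In chr3:16937001-16938000 CG was 89.0% in 4X (145 of 163 reads) and 58.1% in 2X (108 of 186 reads), and CHG 72.6% in 4X and 39.0% in 2X. Window chr1:1037001-1038000 rested on the most reads, with 90.8% CG in 4X (533 of 587 reads) and 62.6% in 2X (386 of 617 reads; exact test, adjusted p = 5.83e-28). Its CHH ran against CG, at 3.01% in 4X and 4.01% in 2X, without a call. The window before it had 16.02% CG in 4X and 20.52% in 2X, and the window after it was unmethylated.

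The largest CG decrease among the named windows was in chr16:3692001-3693000. It had 57.7% in 4X (139 of 241 reads) and 89.1% in 2X (213 of 239 reads), a difference of -31.4 points (exact test, adjusted p = 6.54e-12). CHG was lower too, at 59.7% in 4X and 84.9% in 2X. Of its 18 CG cytosines 17 were lower in 4X, and the 15 that were lower by at least 20 points lay between positions 3692627 and 3692977. It was the only 1 of the 6 named CG windows called by the rank sum test. Window chr13:10357001-10358000 rested on few reads, with 58.1% CG in 4X (25 of 43 reads) and 86.7% in 2X (78 of 90 reads; exact test, adjusted p = 0.0358). In chr17:15023001-15024000 CG was 69.1% in 4X and 93.1% in 2X, while CHG was 59.4% in 4X and 60.8% in 2X, so CG alone was called there.

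In CHH, chr12:17309001-17310000 had 7.38% in 4X (108 of 1464 reads) and 1.86% in 2X (33 of 1777 reads), a difference of 5.52 points (exact test, adjusted p = 3.93e-12), and the rank sum test called it as well. A methylated read was seen at 77 of its 148 CHH cytosines in 4X and at 21 in 2X, with CG at 90.4% in 4X and 89.0% in 2X and CHG at 75.9% in 4X and 77.0% in 2X. The opposite was seen in chr18:15657001-15658000, with 2.38% CHH in 4X (23 of 967 reads) and 7.64% in 2X (66 of 864 reads; exact test, adjusted p = 7.75e-06). CG and CHG were called in neither. On the pooled reads both lay under the CHH limit, while 1 library of each stood above it.

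Depth differed little between the libraries over the members. The ratio of 4X to 2X depth, centred on all windows, was beyond a factor of 2 in 42 members on the high side and 32 on the low side. In 13 members the mean depth was above 100 reads in at least 1 library. The deepest was the first window of chromosome 15, with 1018 reads per cytosine in 4X and 942 in 2X, and levels of 94.0% CG, 63.6% CHG and 4.95% CHH in 4X and of 93.5%, 63.0% and 5.03% in 2X. Leaving out the windows above the 99th percentile of depth gave 65641 members, with a CG difference of 0.233 points.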

How the data were processed

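Terminal buds of 1 autotetraploid and 1 diploid line were profiled by whole-genome bisulfite sequencing, 1 library per line from DNA pooled over 3 vines, and grouped by the ploidy in the labels. The authors discarded low-quality reads and mapped read pairs to the Vitis vinifera genome with a program spelled Bimark in their methods. Neither the version and duplicate handling nor the build and bisulfite conversion rate is stated in the labels, the files or the methods used here. The deposited files list, per cytosine with at least 3 reads, its context, a methylation level as a percent, and the counts of methylated and unmethylated reads, which were not normalized. The percent equalled methylated over all reads in each line. Cytosines without a context (6 in 4X, 10 in 2X) were left out. The members, classes and named windows were chosen with earlier results of these data known.

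Counts of cytosines listed for both lines were summed over 1000 bp windows. Levels were compared with Wilson and Newcombe 95% intervals. Windows were compared with the Fisher and rank sum tests described above, checked on simulated data. The files give no strand, so strands and CHG classes were inferred from paired positions: consecutive CG positions, CHG positions 2 bases apart, and CHG positions beside a CG site. The windows named were the 3 called members with the largest difference per context and direction at 10 to 40 reads, the 2 longest runs, the chromosomes with the highest and lowest share, and the windows at the limits, of which the nearest on each side is given. Alternatives were minimums of 5 and 10 reads, windows shifted by 500 bp, no windows above the 99th percentile of depth, stricter limits (CG 80%, CHG 50%, CHH 3%), site means and the rank sum test. Gene annotation and sequence were not used here. Tables were read with pyarrow 21.0.0 and pandas 2.3.3, tests were computed with scipy 1.17.1 and numba 0.67.0, and figures were drawn with matplotlib 3.10.9, under numpy 2.4.6 and Python 3.11.15.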

Additional observations from a re-analysis of the deposited data

How the results depend on the processing

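The differences of the members in CG, CHG and CHH kept their direction under each of the alternatives. Of 41 alternative values, 27 were graded as unchanged and 14 as moved. For a difference with an interval, the grade unchanged did not require a similar size. The CHG difference, reported as 0.0624 points, was graded unchanged at 0.0425 points with at least 5 reads. Under the stricter limits it was graded unchanged at 0.0955 points. With at least 10 reads per cytosine there were 26838 members, of which 183 were called for CG, 684 for CHG and 1 for CHH (lower in 4X). The stricter limits left 14973 members, and of these 101 were called for CG, 489 for CHG and 1 for CHH. With at least 5 reads, 11 members were called in CHH, 72.7% of them higher in 4X. Averaging over cytosines gave differences of 0.156 points in CHG and -0.0451 points in CHH. The rank sum test called 10 members in CG (40% higher in 4X, against 60.8% by the Fisher test), 25 in CHG and 111 in CHH (39.6% higher, against 52.4%). Windows shifted by 500 bp gave 26 CHH calls, 42.3% higher in 4X. Fewer windows and reads enter under the stricter limits and read minimums, and the causes of the other changes were not tested. No paired analysis was possible because a line was represented by 1 library, and leaving out a replicate was not possible either. The depth of a window limits what can be detected to differences of several points in CG and CHG. A read that covers several cytosines is counted at each, so the Fisher p-values may be too small.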
